A study of Mus musculus with 30 samples.

Results

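Serpins are a family of proteins that share one fold, and most of them inhibit serine proteases, while a few inhibit cysteine proteases or no protease at all. The family was taken as the protein-coding genes in the count table whose symbol begins with Serpin. There were 61 of these among 55487 rows, and 15 had a mean of at least 0.5 CPM (counts scaled to a common library total) over the 30 libraries. Of these, 14 are described below across all 8 groups.

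An inhibitory serpin offers a protease a loop that looks like a substrate. When the loop is cut, the serpin changes shape and traps the protease in a covalent complex. In the heart, extracellular serpins act on clotting, on plasmin formation and on complement, intracellular serpins protect cells from their own granule and lysosomal proteases, and Serpinh1 helps collagen to fold.

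RNA came from mouse hearts taken 8 weeks after surgery, which was either transverse aortic constriction (TAC), where a microclip tightened around the aorta raises the load on the heart, or a sham operation. Of the mice with the genotype CPT1a floxed, 4 had the sham operation (FF_sham) and 4 had TAC (FF_TAC). Of the mice with a cardiac specific CPT1a knockout, 4 had the sham operation (KO_sham) and 4 had TAC (KO_TAC). These 16 hearts are called the floxed cohort. C57Bl/6 mice received PBS, with 3 hearts after sham (PBS_sham) and 3 after TAC (PBS_TAC), or AAV9.Cpt1a, with 4 hearts after sham (AAV_sham) and 4 after TAC (AAV_TAC). These 14 hearts are called the AAV9 cohort. Cpt1a encodes carnitine palmitoyltransferase of the outer mitochondrial membrane, the control point for burning long-chain fatty acids, and the series' design text writes the vector as AAV9.cTNTN.Cpt1a. The labels do not name the Cre line, the age or the sex, and the design text calls the knockout a knockdown. The labels name no empty vector for the PBS mice. In KO_TAC the sample titles hold the words TAC and Sham together, so the genotype and treatment fields, knockout and TAC, were used.

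Total counts ran from 14839758 to 22070373 per library. Cpt1a was at 37.8 to 52.6 CPM in FF_sham and 11.1 to 19.6 CPM in KO_TAC. It was at 20.3 to 46.2 CPM in KO_sham and 16.2 to 48.8 CPM in FF_TAC, so that the library labelled KO_sham 2 (46.2 CPM) lay among the FF_sham values, and those labelled FF_TAC 2 (20.3 CPM) and FF_TAC 3 (16.2 CPM) lay at or below the lowest KO_sham library. Cpt1a was at 37.4 to 68.0 CPM in PBS_sham, 40.2 to 61.5 CPM in PBS_TAC, 56.3 to 88.3 CPM in AAV_sham and 44.8 to 62.6 CPM in AAV_TAC, and the vector and PBS groups overlapped. The same 3 libraries and all 4 KO_TAC libraries stood apart in blood transcripts: their summed haemoglobin genes were at 1.40 to 51.1 CPM, against 294 to 943 CPM in the other 23. A list of 12 early response genes summed to 1953 to 5718 CPM in those 7 libraries, 205 to 303 CPM in the other 9 of the floxed cohort and 411 to 1057 CPM in the AAV9 cohort. Any direction below that rests on KO_sham or FF_TAC includes these doubtful libraries. Markers of cardiomyocytes were abundant in every library, at 34135 to 64521 summed CPM.

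The promoters of 2 members that were higher in the knockout after TAC are shown as the 250 bases before the RefSeq start site on the GRCm38.p6 build, Serpinh1 as the most abundant member and Serpina3n as the one with the largest fold against FF_TAC. Serpinh1 lies on the minus strand of chromosome 7, its gene spanning chr7:99345376-99353239, and the window is chr7:99353240-99353489. Serpina3n lies on the plus strand of chromosome 12, its gene spanning chr12:104406729-104414329, and the window is chr12:104406458-104406707. Capitals mark the only match to the 5 motifs searched in either window, which is to the SMAD motif CAGACA on the reverse strand, which begins 213 bases before the Serpinh1 start.
Serpinh1: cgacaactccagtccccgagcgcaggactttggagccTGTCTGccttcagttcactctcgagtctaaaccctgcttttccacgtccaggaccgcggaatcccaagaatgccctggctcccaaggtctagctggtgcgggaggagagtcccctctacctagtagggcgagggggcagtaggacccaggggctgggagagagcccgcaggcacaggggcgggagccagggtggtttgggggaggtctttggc
Serpina3n: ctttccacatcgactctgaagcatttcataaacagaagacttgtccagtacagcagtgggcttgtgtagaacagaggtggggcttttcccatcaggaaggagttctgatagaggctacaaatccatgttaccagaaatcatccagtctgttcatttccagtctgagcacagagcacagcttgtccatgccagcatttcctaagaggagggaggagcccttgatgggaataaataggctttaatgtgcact
Of the 14 members, 12 had an entry in the RefSeq promoter table. A STAT motif (TTCNNNGAA) was in a window of 1 of these genes, a heat shock motif (GAANNTTC) in 1, an AP-1 motif (TGANTCA) in 1, the SMAD motif in 2 and a TATA motif (TATAAA) in 2. Searched on both strands, the same motifs were in 7.02%, 6.69%, 6.75%, 17.1% and 12.4% of 32851 windows of the same length. A match is a run of letters and says nothing of binding.

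Levels of different genes were compared as CPM per kb of exon, since longer transcripts give more reads. In FF_sham, Serpinh1, the collagen chaperone of the endoplasmic reticulum, was the highest at 86.0 ± 11.9 CPM per kb (SD, n = 4). Serping1, the inhibitor of the complement proteases C1r and C1s, followed at 43.3 ± 7.35 CPM per kb. The intracellular pair Serpinb6b and Serpinb6a were at 21.7 ± 3.22 and 18.3 ± 0.617 CPM per kb, a gap close to the SD of Serpinb6b. Serpinf1 and Serpina3n followed at 10.1 ± 1.21 and 5.80 ± 3.79 CPM per kb, and the spread of Serpina3n covered its neighbour Serpinb9 (4.92 ± 0.772 CPM per kb). The other 7 members were at 0.0709 to 3.24 CPM per kb, with Serpinb1c the lowest.

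In KO_TAC the order was different. Serpinh1 was at 164 ± 21.2 CPM per kb (SD, n = 4), Serping1 at 101 ± 25.7 and Serpina3n at 100.1 ± 88.5 CPM per kb, so that Serping1 and Serpina3n lay within an SD of each other and Serpinh1 lay above Serping1 by more than either SD. Serpinb1c was at 7.11 ± 5.30 CPM per kb, above Serpinb9 at 5.38 ± 1.40 CPM per kb by less than its SD.

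**Figure D1:**
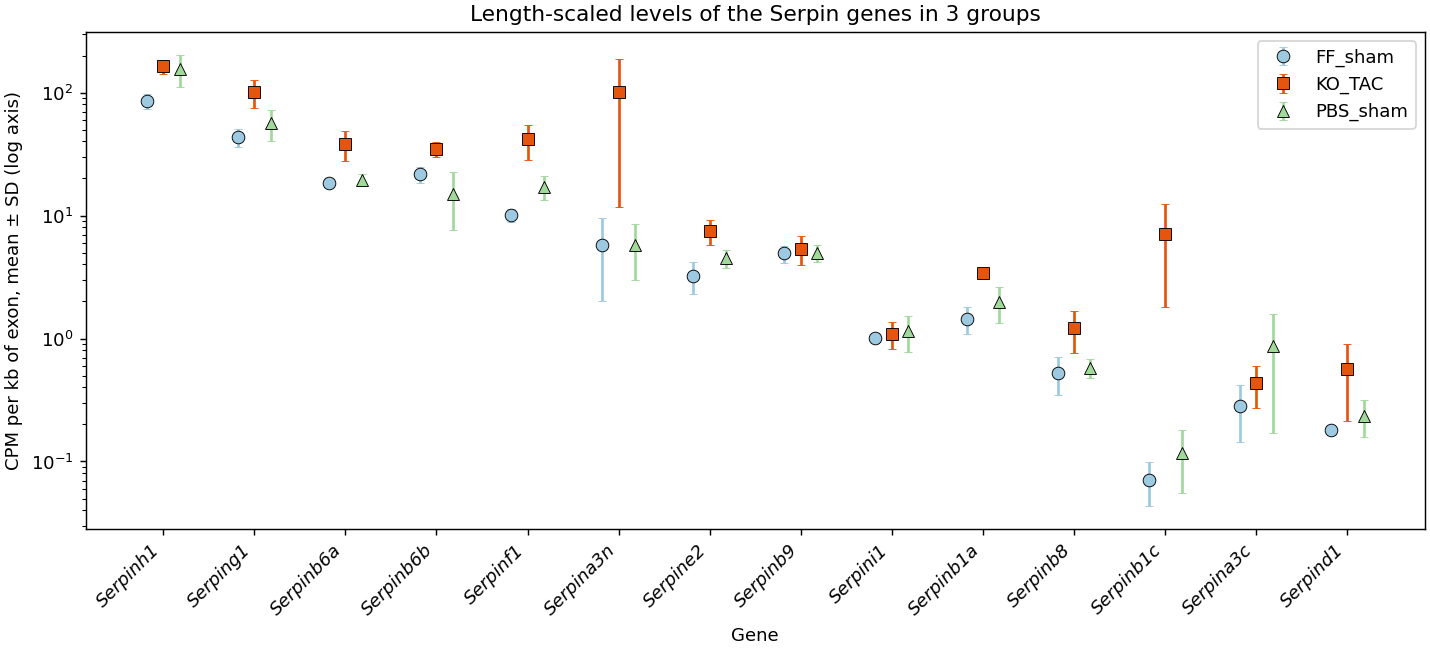
Level of each of the 14 Serpin genes (x axis) in CPM per kb of exon on a log y axis, as the mean and SD over FF_sham, KO_TAC (n = 4 each) and PBS_sham (n = 3), each group with its own marker. Serpina3n and Serpinb1c have the widest gaps between FF_sham and KO_TAC, while Serpinb9 and Serpini1 have almost none.

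In the knockout hearts, 9 of the 14 Serpin genes were higher after TAC than after sham and none was lower. A gene was called at an adjusted p under 0.05 (edgeR's quasi-likelihood test, Benjamini-Hochberg adjustment over all genes tested). Over all 15596 genes tested, 25.8% were called in either direction, 14.3% higher and 11.5% lower. The median log2 fold change of the 14 members was 0.86, against 0.02 for all genes. The same 9 members had no overlap between the KO_TAC and KO_sham libraries, a condition that 11.1% of all genes met on the higher side. The members not called were Serpinb9, Serpini1, Serpinb8, Serpina3c and Serpind1.

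Against FF_TAC, KO_TAC had 10 members higher and none lower, where 14.3% of all genes were called in either direction, 7.53% higher and 6.8% lower. The 2 comparisons share the KO_TAC libraries, and 9 members were called in both. Serpind1 was called only against FF_TAC. It met the membership limit, at 0.522 CPM over the 30 libraries, through KO_TAC, the group where it is high. Its mean was 1.23 CPM in KO_TAC and 0.283 to 0.517 CPM in the other groups, so its call is no independent addition to the count. In 7 members the libraries of KO_TAC all lay above those of FF_TAC, against 6.76% of all genes. Those of Serpinb6a, Serpinb6b and Serpinb1c overlapped although the test called them. Without the libraries labelled FF_TAC 2, FF_TAC 3 and KO_sham 2, 9 members were called against KO_sham, the same 9, and 11 against FF_TAC, the same 10 and Serpinb8. Their log2 fold changes against KO_sham then ran from 0.57 in Serpinb6b to 4.26 in Serpinb1c, with Serpinh1 at 0.89 and Serpina3n at 2.82. Against FF_TAC they ran from 0.75 in Serpinb6b to 3.80 in Serpina3n, with Serpinh1 at 0.86, Serpinb1c at 3.52 and Serpinb8 at 1.37 (0.52 ± 0.37 with all libraries). Without the same 3 libraries, 0 members and 0 of all genes were called in FF_TAC against FF_sham and in KO_sham against FF_sham. For the 2 comparisons with KO_TAC the share of all genes called in that fit is not given. The counts of 9 and 11 there are printed without their background, and the change from 10 to 11 is not read as a result about the members.

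No KO_TAC library has haemoglobin transcripts above 100 CPM, so the knockout after TAC and low haemoglobin cannot be told apart within that group. All FF_sham libraries were above 100 CPM, so a haemoglobin term in the fit rests on FF_TAC and KO_sham. The low libraries there are the doubtful FF_TAC 2, FF_TAC 3 and KO_sham 2, with Cpt1a levels like those of the other genotype. In that term, here and below, haemoglobin and a genotype unlike the label cannot be told apart. With haemoglobin (under 100 CPM or not) as a term in the fit, 2 members stayed called against KO_sham, namely Serpinf1 and Serpinb1c, and of all 15596 genes 273 were called, from 4031 without the term. Against FF_TAC 6 stayed called with the term, namely Serping1, Serpinf1, Serpina3n, Serpine2, Serpinb1a and Serpinb1c, and 1127 of all genes, from 2235. Among haemoglobin-low libraries alone (4 KO_TAC and 2 FF_TAC), 0 members and 0 of all genes were called against FF_TAC. The FF_TAC libraries in that fit are the doubtful FF_TAC 2 and FF_TAC 3, with Cpt1a at 20.3 and 16.2 CPM, so it may not compare knockout with floxed hearts.

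**Figure D2:**
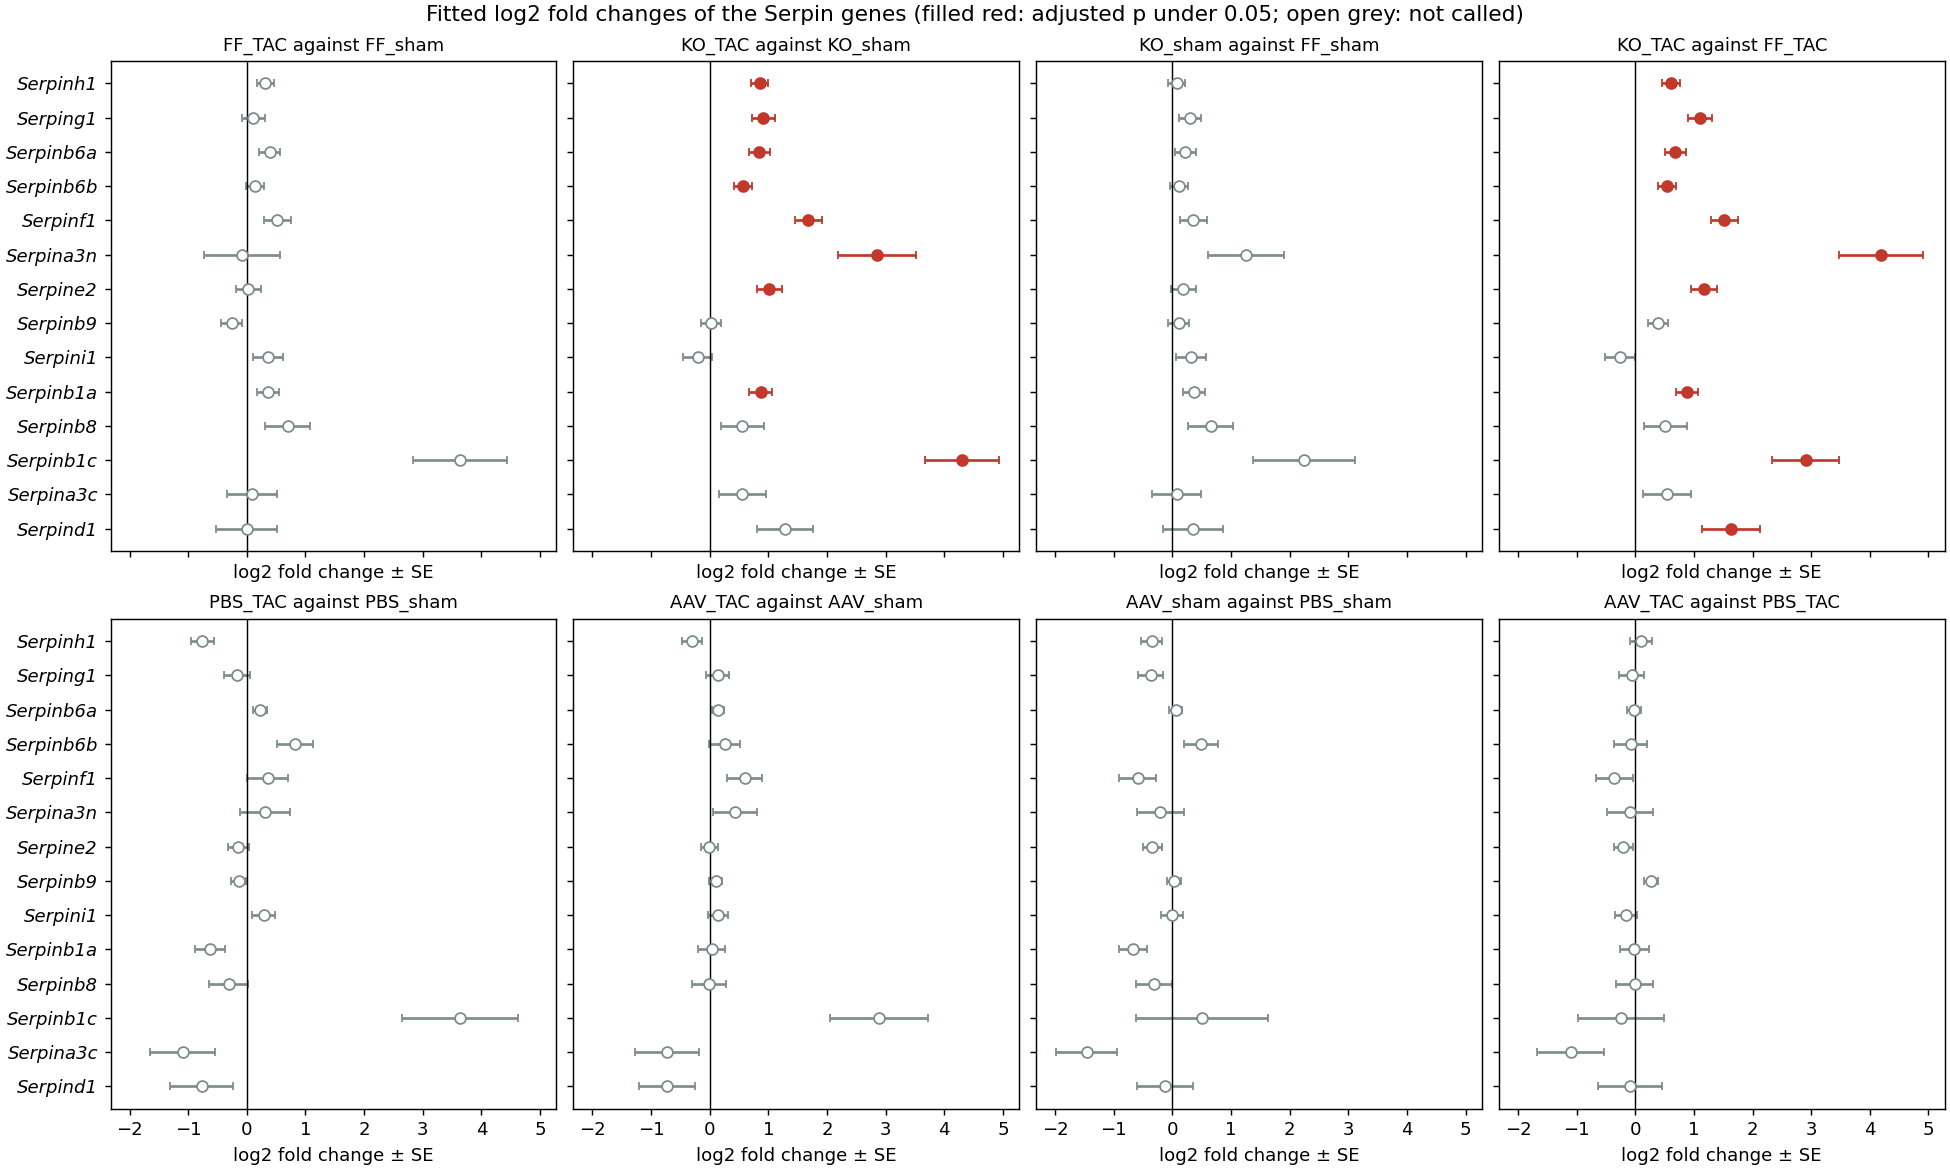
Log2 fold change (x axis) with its SE for each of the 14 Serpin genes (y axis) in 8 comparisons between pairs of groups, the floxed cohort above and the AAV9 cohort below. Filled red points mark an adjusted p under 0.05, and these appear only in the panels of KO_TAC against KO_sham and KO_TAC against FF_TAC, 9 in the first and 10 in the second.

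Serpine2 encodes a cell-surface inhibitor of thrombin and urokinase. It was at 31.2, 38.2, 20.9 and 31.7 CPM in KO_sham, 33.1, 26.0, 27.6 and 22.9 CPM in FF_TAC and 54.9, 69.4, 76.7 and 46.1 CPM in KO_TAC. Every KO_TAC heart lay above every heart of the other 7 groups. It rose by 1.02 ± 0.22 on the log2 scale against KO_sham (edgeR adjusted p = 0.00557) and by 1.17 ± 0.22 against FF_TAC (edgeR adjusted p = 0.00313). Among haemoglobin-low libraries alone the second value was 1.18 ± 0.24, with an adjusted p of 0.261 from edgeR. Serpini1, a neuronal inhibitor of the tissue plasminogen activator, was at 5.17 to 9.46 CPM in KO_TAC and 6.63 to 14.9 CPM in KO_sham, with a log2 fold change of -0.21 ± 0.25. Its highest value in the floxed cohort was in the library labelled KO_sham 2. Serpind1, a heparin-dependent thrombin inhibitor made mainly in liver, was under 1 CPM in 28 of 30 libraries. It was at 0.590, 0.600, 2.11 and 1.61 CPM in KO_TAC and at 0.221 to 0.542 CPM in FF_TAC. Against FF_TAC it rose by 1.63 ± 0.49 (edgeR adjusted p = 0.0376), a call lost in 5 of 8 fits that left out 1 library. Hepatocyte markers summed to 28.1 CPM at most in any library, and to 3.54 to 24.5 CPM in KO_TAC against 1.78 to 2.90 CPM in FF_TAC; their part in the Serpind1 value was not tested.

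Serpina3n is an extracellular acute-phase serpin, the mouse relative of human antichymotrypsin, and inhibits leukocyte proteases such as granzyme B. It was at 5.68, 23.3, 10.6 and 8.31 CPM in FF_sham and at 21.3, 7.59, 8.52 and 7.95 CPM in FF_TAC. It was at 45.1, 27.9, 23.2 and 18.5 CPM in KO_sham and at 45.1, 320, 403 and 57.4 CPM in KO_TAC. The hearts KO_TAC 2 and KO_TAC 3 were far above the rest, while KO_TAC 1 exceeded KO_sham 1 only from the fourth digit on (45.11 against 45.07 CPM). Serpina3n rose by 2.85 ± 0.67 on the log2 scale against KO_sham (edgeR adjusted p = 0.00908) and by 4.18 ± 0.71 against FF_TAC (edgeR adjusted p = 0.00219). With the haemoglobin term these were 3.20 ± 0.87 (edgeR adjusted p = 0.0712) and 4.47 ± 0.86 (edgeR adjusted p = 0.0091). In haemoglobin-low libraries alone, KO_TAC stood 4.66 ± 1.13 above FF_TAC, and this was not called. The TAC response of the knockout exceeded that of the floxed controls by 2.93 ± 0.92 on the log2 scale, with an adjusted p of 0.19 from edgeR.

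KO_sham hearts were at 18.5 to 45.1 CPM of Serpina3n against 5.68 to 23.3 CPM in FF_sham, an overlap of the groups, and the log2 fold change was 1.26 ± 0.65 (edgeR adjusted p = 0.98). The AAV9 cohort was at 6.37 to 21.9 CPM of Serpina3n with overlap between all groups. Its neighbour Serpina3c, in the same cluster on chromosome 12, was at 1.33 CPM or less in every group but PBS_sham, where it was at 0.876, 3.71 and 1.196 CPM. It was called in none of the comparisons. Of the 100-base stretches in Serpina3n transcripts, 0.204% also occur in transcripts of another gene. How the authors counted reads that match several genes is not given, and reads that fit a related gene with mismatches were not measured, so the Serpina3n and Serpina3c levels are uncertain to that extent.

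**Figure D3:**
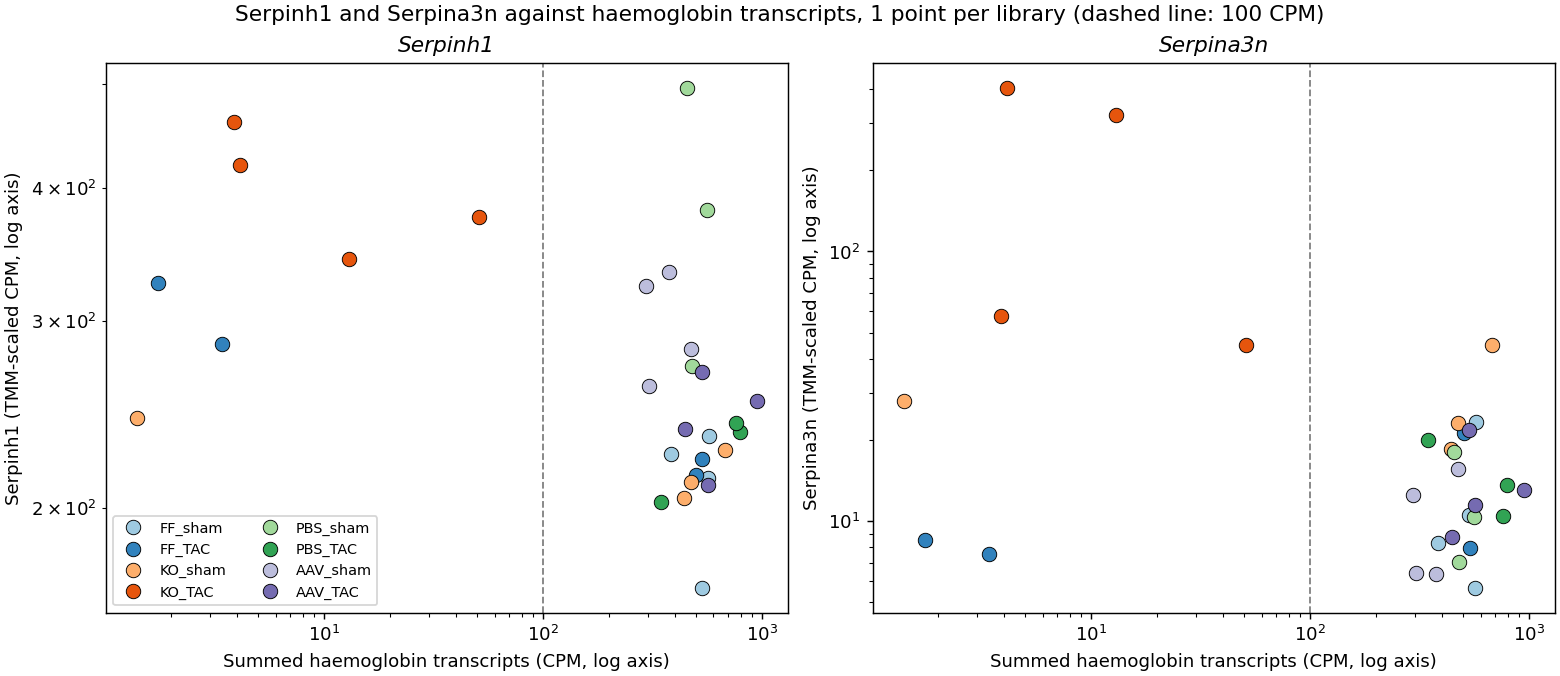
Serpinh1 (left) and Serpina3n (right) in TMM-scaled CPM (y axis, log) against the summed CPM of 4 haemoglobin genes (x axis, log), 1 point for each of 30 libraries, coloured by group. The libraries left of the dashed line at 100 CPM have Serpinh1 at 243 CPM or more, and for Serpina3n they span 7.59 to 403 CPM.

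Serping1 encodes the inhibitor of C1r, C1s and plasma kallikrein. It was at 145, 103, 101 and 86.4 CPM in FF_TAC, 136, 138, 97.9 and 125 CPM in KO_sham and 199.97, 254, 309 and 174 CPM in KO_TAC. All KO_TAC hearts lay above those of FF_TAC and KO_sham. The log2 rise was 0.92 ± 0.20 against KO_sham (edgeR adjusted p = 0.00582) and 1.11 ± 0.20 against FF_TAC (edgeR adjusted p = 0.00263). In haemoglobin-low libraries alone the rise against FF_TAC was 1.18 ± 0.27 and was not called. Serping1 in the AAV9 cohort was at 75.9 to 174 CPM with overlap between the groups of each comparison.

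The next members do not inhibit proteases. Serpinh1 binds procollagen in the endoplasmic reticulum and was at 213, 234, 168 and 225 CPM in FF_sham, 215, 285, 325 and 222 CPM in FF_TAC, 227, 243, 212 and 204 CPM in KO_sham and 375, 342, 420 and 461 CPM in KO_TAC. The lowest KO_TAC heart lay above the highest of every other floxed group. The 7 haemoglobin-low libraries were at 243 to 461 CPM and the other 9 of the floxed cohort at 168 to 234 CPM, which do not overlap. The haemoglobin-low FF_TAC 2 and FF_TAC 3 held the highest FF_TAC values, at 285 and 325 CPM. The rise was 0.85 ± 0.15 on the log2 scale against KO_sham (edgeR adjusted p = 0.00227) and 0.61 ± 0.15 against FF_TAC (edgeR adjusted p = 0.0129). With the haemoglobin term these fell to 0.59 and 0.45, with adjusted p values of 0.0746 and 0.0632 from edgeR. Without FF_TAC 4 the rise against FF_TAC was 0.54 and its call was lost (edgeR adjusted p = 0.0546).

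Serpinh1 in the AAV9 cohort was at 381, 496 and 272 CPM in PBS_sham and 236, 202 and 240 CPM in PBS_TAC. There, TAC hearts lay below sham hearts with no overlap, and the log2 fold change was -0.76 ± 0.20 (edgeR adjusted p = 0.142, DESeq2 adjusted p = 0.0238). The edgeR test called it without PBS_sham 1 and without PBS_sham 3, with adjusted p values of 0.0479 and 0.0112. PBS_sham was uneven in cell markers: cardiomyocyte markers summed to 34135 to 63040 CPM, smooth muscle markers to 820 to 3419 CPM and adipocyte markers to 18.7 to 463 CPM. The sums of 34135 and 3419 CPM were both in PBS_sham 3, the library with the lowest Serpinh1 of the group. The sum of 463 CPM was in PBS_sham 2, the library with the highest. The part of these cell types in the Serpinh1 value was not tested. AAV_sham was at 261 to 333 CPM and AAV_TAC at 210 to 268 CPM of Serpinh1, a log2 fold change of -0.31 ± 0.17 (edgeR adjusted p = 0.789).

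Serpinf1 encodes pigment epithelium-derived factor, a secreted serpin that restrains vessel growth. It was at 24.6, 43.1, 37.1 and 32.1 CPM in FF_TAC, 36.9, 27.6, 23.3 and 34.0 CPM in KO_sham and 57.6, 119, 126 and 88.9 CPM in KO_TAC. Every KO_TAC heart lay above those of both comparison groups. It rose by 1.68 ± 0.23 on the log2 scale against KO_sham (edgeR adjusted p = 0.000713) and 1.52 ± 0.23 against FF_TAC (edgeR adjusted p = 0.00125), and both calls held with the haemoglobin term at 1.51 ± 0.31 and 1.42 ± 0.26. The TAC response of the knockout exceeded that of the floxed controls by 1.16 ± 0.32, with an adjusted p of 0.15 from edgeR and 0.033 from DESeq2. Without KO_TAC 1 it was 1.34, with an adjusted p of 0.0364 from edgeR.

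Fibroblast markers, which include collagen genes, summed to 2348 to 2895 CPM in KO_TAC, 1250 to 2014 CPM in KO_sham and 1191 to 1253 CPM in FF_TAC, with 8 of 8 genes counted in every library. Within KO_TAC, the heart with the highest sum, KO_TAC 4, had the lowest Serping1 and Serpine2 values and the highest Serpinh1 value. Schwann and neural markers summed to 49.3 to 139 CPM in KO_TAC and to 34.4 CPM at most in KO_sham. Macrophage markers summed to 424 to 507 CPM in KO_TAC. They overlapped with KO_sham, at 333 to 715 CPM, and lay above every FF_TAC library, at 258 to 290 CPM. Endothelial markers summed to 514 to 845 CPM in KO_TAC, 802 to 980 CPM in KO_sham and 703 to 1069 CPM in FF_TAC. The groups overlapped through KO_TAC 1, while KO_TAC 2, KO_TAC 3 and KO_TAC 4 lay below every KO_sham and FF_TAC library. The part of these cell types in the Serpin values was not tested. In whole hearts, more cells of a type and more RNA per cell cannot be told apart.

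**Figure D4:**
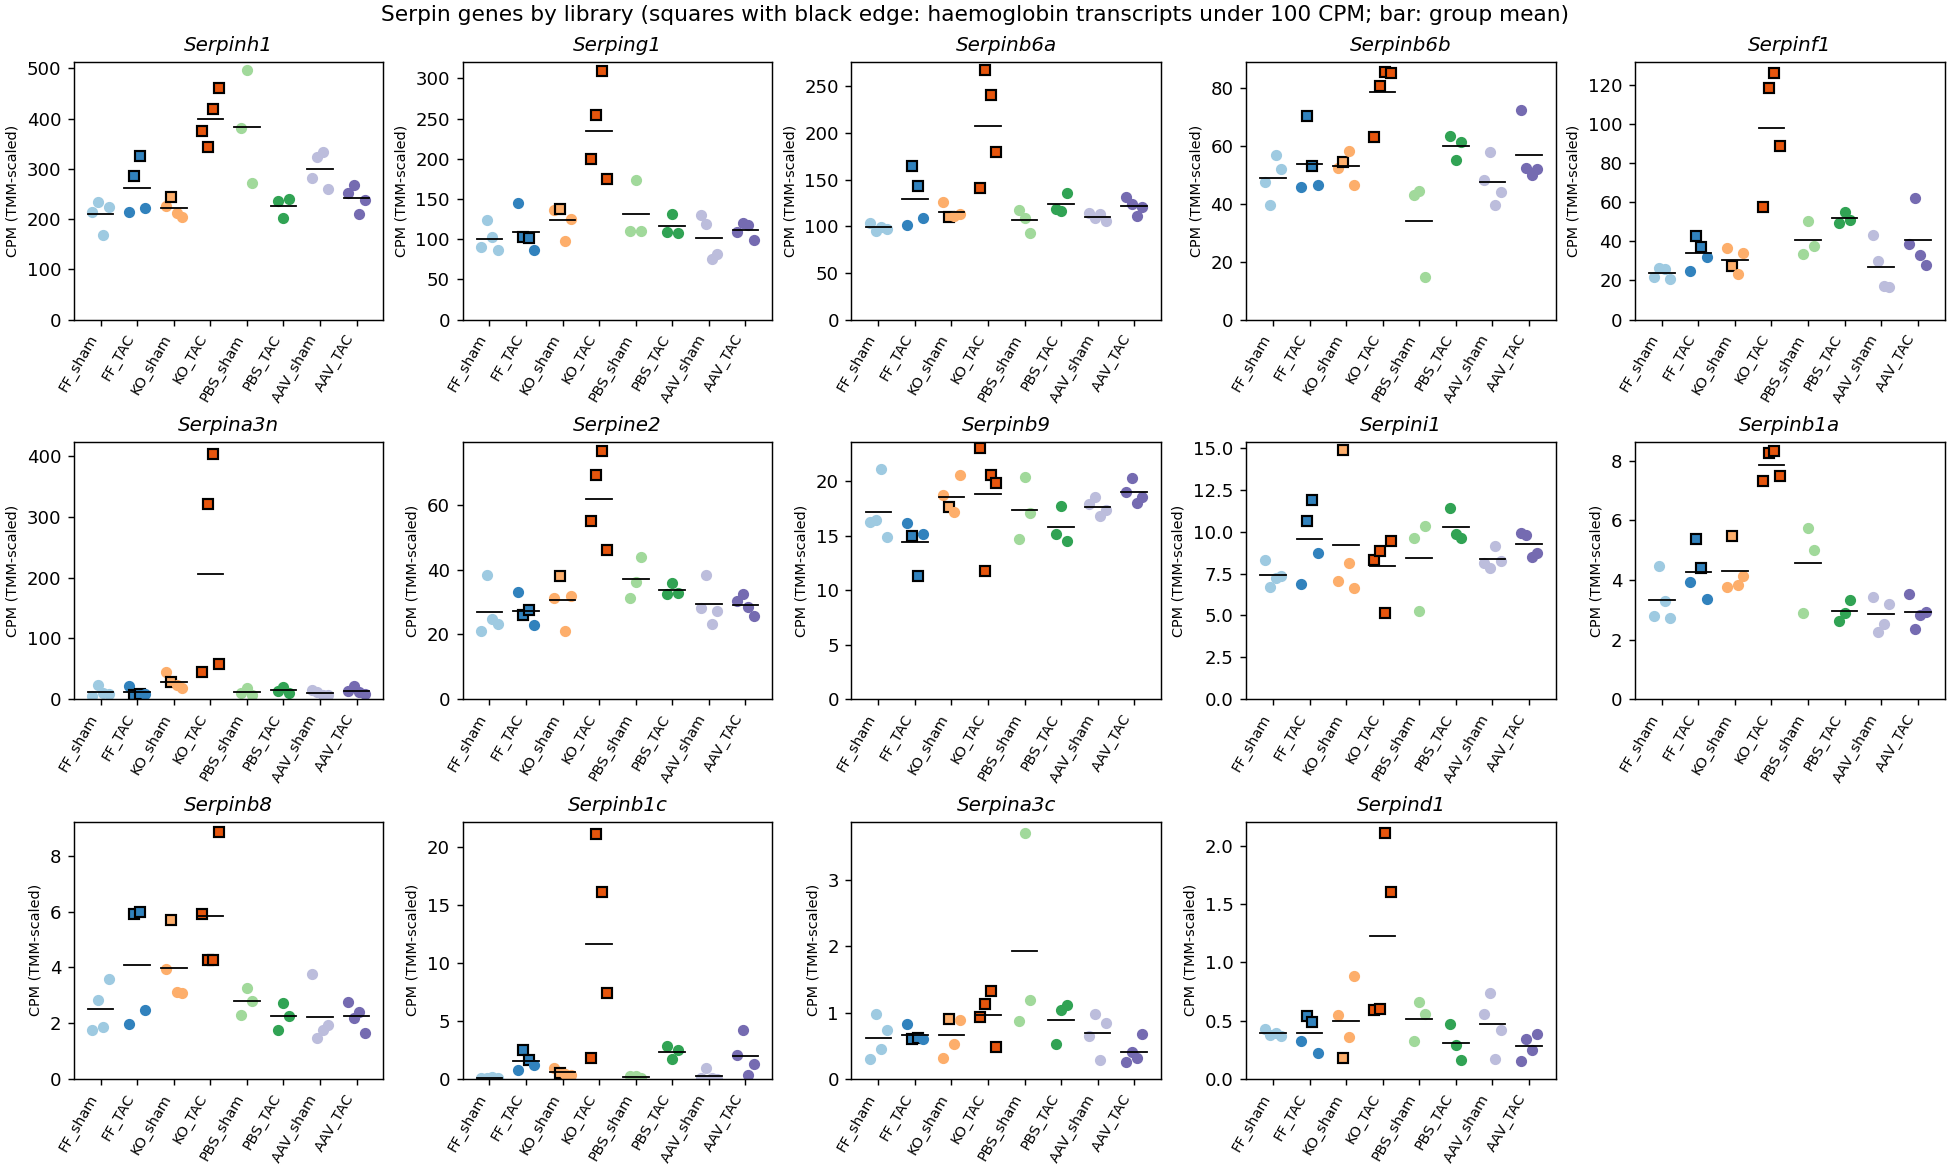
TMM-scaled CPM (y axis, from 0) of each of the 14 Serpin genes in 30 libraries by group (x axis), with the group mean as a bar and black-edged squares for haemoglobin-low libraries. KO_TAC has the highest group mean in most panels, and Serpinh1 is also high in PBS_sham.

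The intracellular serpins of clade B include 5 members that lie within 1161 kb on chromosome 13, chr13:32842092-34002794: Serpinb1a, Serpinb1c, Serpinb6b, Serpinb9 and Serpinb6a. Against KO_sham, 4 of these 5 rose in KO_TAC and Serpinb9 did not. Serpinb1c had the largest log2 fold change of the 14 members in that comparison. It is a close relative of Serpinb1a, an inhibitor of neutrophil elastase. It was at 0.122, 0.109, 0.171 and 0.0616 CPM in FF_sham, which is 3 counts or fewer per library, and at 0.767, 2.53, 1.65 and 1.21 CPM in FF_TAC. It was at 0.967, 0.546, 0.416 and 0.365 CPM in KO_sham and 1.82, 21.1, 16.1 and 7.37 CPM in KO_TAC. The KO_TAC hearts differed 11.6-fold among themselves, and KO_TAC 1 was below the highest FF_TAC heart. The log2 rise was 4.30 ± 0.63 against KO_sham (edgeR adjusted p = 0.00102) and 2.91 ± 0.57 against FF_TAC (edgeR adjusted p = 0.0046), and both calls held with the haemoglobin term at 3.78 ± 0.83 and 2.64 ± 0.65.

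Serpinb1c was also higher after TAC in the other pairs of groups, without passing the edgeR threshold. FF_TAC was at least 8.65-fold higher than FF_sham, taking 3 counts per library as the floor, with no overlap (edgeR adjusted p = 0.328, DESeq2 adjusted p = 0.00127). The highest FF_TAC values in that mean are those of the doubtful FF_TAC 2 and FF_TAC 3, at 2.53 and 1.65 CPM. FF_TAC 1 and FF_TAC 4 were at 0.767 and 1.21 CPM. Of all genes, 2.74% had every FF_TAC library above every FF_sham library, and 0 of 15596 were called by edgeR. KO_sham was at least 3.22-fold higher than FF_sham by the same floor (edgeR adjusted p = 0.907). In the AAV9 cohort it was at 0.219, 0.277 and 0.0797 CPM in PBS_sham and 2.81, 1.73 and 2.54 CPM in PBS_TAC, a log2 fold change of 3.63 ± 0.996 (edgeR adjusted p = 0.146, DESeq2 adjusted p = 0.0232). It was at 0.0504, 0.919, 0.117 and 0 CPM in AAV_sham and 2.097, 4.20, 0.378 and 1.30 CPM in AAV_TAC, which overlap, a log2 fold change of 2.89 ± 0.84 (edgeR adjusted p = 0.33). It was 2.24 without AAV_TAC 2 and 4.995 without AAV_sham 2. The TAC response of the knockout differed from that of the floxed controls by 0.66 ± 1.24 on the log2 scale (edgeR adjusted p = 0.839), and those of the vector and PBS groups by -0.74 ± 1.34 (edgeR adjusted p = 0.839). Floors and counts this low cover counting error only.

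Serpinb1a was at 3.78, 5.46, 3.85 and 4.12 CPM in KO_sham and 7.33, 8.25, 8.33 and 7.49 CPM in KO_TAC, the tightest KO_TAC group of the 14 members with 1.14-fold from lowest to highest. It rose by 0.87 ± 0.19 on the log2 scale against KO_sham (edgeR adjusted p = 0.00635) and by 0.88 ± 0.19 against FF_TAC (edgeR adjusted p = 0.00769). Neutrophil markers summed to 6.63 CPM at most in any library, and to 0.708 to 5.06 CPM in KO_TAC against 1.46 to 5.48 CPM in KO_sham.

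Serpinb6a, an inhibitor of cathepsin G and trypsin-like proteases, was at 126, 110, 111 and 113 CPM in KO_sham and 141, 267, 241 and 179 CPM in KO_TAC. Its exons overlap those of 1110046J04Rik, Nqo2 and Ripk1 on the opposite strand and the strand setting of the counting is not given, so its level is uncertain. Serpinb6b, its close relative, was at 52.3, 54.5, 58.3 and 46.5 CPM in KO_sham and 63.0, 80.6, 85.4 and 85.3 CPM in KO_TAC. Both rose against KO_sham with no overlap, by 0.85 ± 0.18 and 0.57 ± 0.15 on the log2 scale (edgeR adjusted p = 0.00582 and 0.015). Against FF_TAC both overlapped, at 0.68 ± 0.18 and 0.54 ± 0.15 (edgeR adjusted p = 0.0215 and 0.0256), and the calls were lost in 4 and 6 of 8 fits that left out 1 library. The highest FF_TAC values of both were in the haemoglobin-low FF_TAC 2 and FF_TAC 3. These were at 164 and 143 CPM of Serpinb6a and at 70.2 and 52.9 CPM of Serpinb6b.

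Serpinb9, the intracellular inhibitor of granzyme B, was at 11.3 to 23.0 CPM in all 30 libraries. Its log2 fold change was 0.02 ± 0.18 in KO_TAC against KO_sham and 0.39 ± 0.18 against FF_TAC (edgeR adjusted p = 0.931 and 0.152). Serpinb8, which inhibits furin in vitro and lies on chromosome 1, was at 4.27 to 8.86 CPM in the 7 haemoglobin-low libraries and at 1.77 to 3.96 CPM in the other 9 of the floxed cohort, which do not overlap. KO_TAC and KO_sham overlapped, with a log2 fold change of 0.56 ± 0.37 (edgeR adjusted p = 0.272).

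The 4 KO_TAC hearts differed in which Serpin genes were high. Of the 9 members called against KO_sham, KO_TAC 1 had the lowest value of the 4 hearts in 6 and KO_TAC 3 the highest in 6. KO_TAC 2 and KO_TAC 3 were 11.2 and 14.1 times the KO_sham mean in Serpina3n, against 1.57 and 2.01 times in KO_TAC 1 and KO_TAC 4. In Serpinh1 the highest was KO_TAC 4, at 2.08 times the KO_sham mean. KO_TAC 1 had 3550 CPM of the atrial myosin light chain gene Myl7, against 0.674 CPM at most in the other 3 KO_TAC hearts. A list of 6 atrial genes, which includes the load-responsive Nppa, summed to 4476 to 20005 CPM in KO_TAC, 110 to 3259 CPM in KO_sham and 140 to 484 CPM in FF_TAC. The part of atrial tissue in the Serpin values of KO_TAC was not tested. Without KO_TAC 1, 10 members were called in each comparison, and the share of all genes called in that fit is not given.

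**Figure D5:**
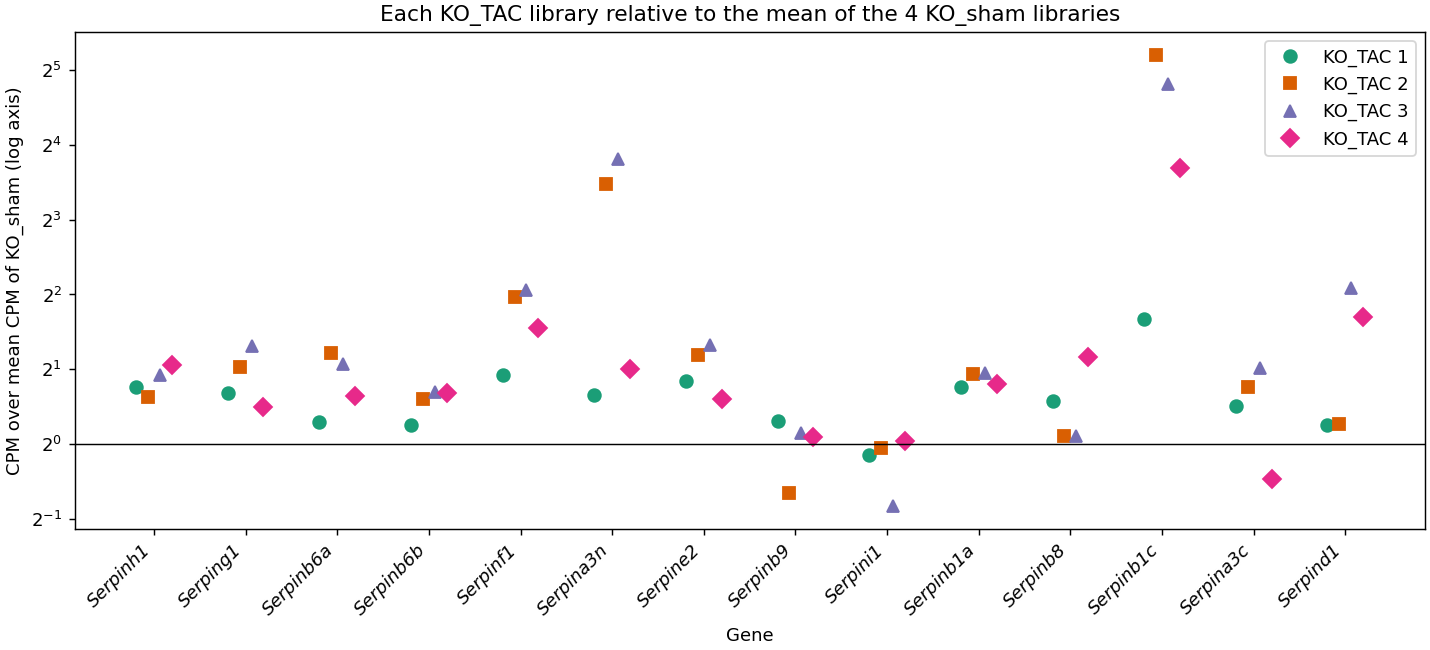
Each KO_TAC library's CPM divided by the mean of the 4 KO_sham libraries (y axis, log) for the 14 Serpin genes (x axis), with 1 marker shape per KO_TAC library. Serpina3n and Serpinb1c spread most, from 1.57 to 14.1 and from 3.17 to 36.9, and Serpinb1a least.

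In the remaining comparisons edgeR called no Serpin gene. FF_TAC against FF_sham called 0% of all genes, and 4 of 14 members had an unadjusted p under 0.05, against 11.1% of all genes. DESeq2 called 1 member, Serpinb1c. The shares of all genes called, here and for the AAV9 cohort below, are those of edgeR and give no background for the DESeq2 counts. KO_sham against FF_sham also called 0% of all genes, with 1 member under an unadjusted 0.05 against 5.22% and 0 by DESeq2. All 14 members had a log2 fold change above 0 there, with a median of 0.31 against 0.00 for all genes. Without the 3 doubtful libraries 12 did, and with the haemoglobin term 13. In 12 of the 14 the groups overlapped, and the 2 that lay higher without overlap, Serpinb6a and Serpinb1c, stand against 3.23% of all genes. The knockout by TAC interaction called 0.0449% of all genes, with 5 members under an unadjusted 0.05 against 13.1%, and DESeq2 called 1, Serpinf1.

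In the AAV9 cohort, PBS_TAC against PBS_sham called 0.0318% of all genes, with 4 members under an unadjusted 0.05 against 18.5%. DESeq2 called 2 in that comparison, namely Serpinh1 and Serpinb1c, and the DESeq2 share over all genes is not given, so these calls have nothing to be set against here. There, 2 members lay higher without overlap against 8.11% of all genes, Serpinb6b and Serpinb1c, and Serpinh1 lay lower against 6.57%. AAV_TAC against AAV_sham called 0.00635% of all genes, with 1 member under an unadjusted 0.05 against 7.05%, and AAV_sham against PBS_sham called 0.0127%, with 2 members against 20.7%. DESeq2 called 0 members in both. AAV_TAC against PBS_TAC called 0.0381%, with 1 member under an unadjusted 0.05 against 3.19% and 0 by DESeq2. There, Serpinb9 lay higher without overlap against 4.19% of all genes, and Serpine2 lay lower against 4.28%. The vector by TAC interaction called 0.00635%, with 0 members under an unadjusted 0.05 against 6.95% and 0 by DESeq2. Adding log2 Myl7 as a covariate left the count at 0 in all 5 comparisons of this cohort.

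Genes that work with the serpins were counted from 3 lists, to be read against the 14.3% of all genes higher and 11.5% lower in KO_TAC against KO_sham (median log2 fold change 0.02) and the 7.53% and 6.8% against FF_TAC (median 0.04). Of 22 tested proteases and receptors, such as the plasminogen activators and complement proteases, 9 rose and 1 fell in KO_TAC against KO_sham, and 7 rose and 2 fell against FF_TAC. Their median log2 fold changes were 0.33 and 0.56. The largest changes against KO_sham were in Plaur, the urokinase receptor, at 3.96 ± 1.25, in Procr, the protein C receptor, at 2.09 ± 0.61 and in Plau, urokinase, at 1.77 ± 0.59 (edgeR adjusted p = 0.0314, 0.0224 and 0.0389). The calls of Plaur, Procr and Plau were each lost without KO_sham 1, 3 or 4, that of Plaur also without KO_TAC 3 or 4, and that of Plau without KO_TAC 2, 3 or 4. Without the library labelled KO_sham 2 Plaur was at 5.69. With the haemoglobin term, 0 of this list stayed called, and these 3 were at 0.82, 0.86 and 0.13. Plaur was uneven in KO_sham, at 1.72 to 23.4 CPM, and in FF_TAC, at 1.32 to 177 CPM, and was at 60.4 to 214 CPM in KO_TAC. In the main fit against FF_TAC, Plaur, Procr and Plau were not called. They were there at 0.56 ± 1.10, 1.42 ± 0.59 and 0.29 ± 0.57 (edgeR adjusted p = 0.756, 0.115 and 0.754). The genes that fell were chosen for naming after their values were seen: Vldlr, a lipoprotein receptor that takes up serpin complexes, at -0.41 ± 0.11 against KO_sham and -0.59 ± 0.11 against FF_TAC, and Vtn, the adhesion protein vitronectin, at -0.67 ± 0.16 against FF_TAC (edgeR adjusted p = 0.0131, 0.00262 and 0.0135). Without KO_sham 3 or KO_TAC 3 the list had 6 and 5 called, and without the 3 doubtful libraries 10. The shares of all genes called without these libraries are not given, here or for the other lists.

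Of 19 tested collagens and collagen-folding genes, the partners of Serpinh1, 8 rose and none fell against KO_sham, and 9 rose and none fell against FF_TAC, with median log2 fold changes of 0.31 and 0.51. P4ha1, a subunit of the collagen prolyl hydroxylase, rose by 1.30 ± 0.12 from 46.8 ± 5.21 to 115 ± 9.78 CPM (SD, n = 4 each; edgeR adjusted p = 0.00032). Col5a2 rose by 1.15 ± 0.21 and Col1a1 by 0.80 ± 0.20 (edgeR adjusted p = 0.00262 and 0.0114). With the haemoglobin term 3 of this list stayed called, and without the 3 doubtful libraries 7 were.

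Of 25 tested acute-phase and STAT3-linked genes, 14 rose and 1 fell in KO_TAC against KO_sham, and 10 rose and none fell against FF_TAC, with median log2 fold changes of 1.55 and 1.19. The cytokine Il11 rose by 4.10 ± 0.68, from at most 4 counts in any KO_sham library to 1.72 to 3.61 CPM. Timp1, an inhibitor of metalloproteinases, rose by 3.57 ± 0.65 and the cytokine Lif by 3.24 ± 0.82 (edgeR adjusted p = 0.00184 for Il11, 0.00282 for Timp1 and 0.0129 for Lif). Lifr, the receptor for Lif, fell by 1.08 ± 0.23 (edgeR adjusted p = 0.00597) and was named after its value was seen. With the haemoglobin term 0 of this list stayed called, and without the 3 doubtful libraries 18 were. None of the 3 lists had a called gene in any of the other 8 comparisons. The median of the acute-phase list was still 0.94 in FF_TAC against FF_sham and 0.48 in KO_sham against FF_sham. Both of these rest in part on the doubtful libraries. It was -0.54 in PBS_TAC against PBS_sham and -0.18 in AAV_TAC against AAV_sham.

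The other 46 protein-coding Serpin genes were below the mean of 0.5 CPM and were not tested as members. Of these, 16 had no count in any library, 18 had counts with a mean under 0.1 CPM and 12 had a mean of 0.1 CPM or more. The last member inside the limit was Serpind1 at 0.522 CPM, and the first outside were Serpina3f at 0.491 CPM and Serpina3g at 0.465 CPM. Of those 12, 7 had their highest group mean in KO_TAC. The limit of 0.1 CPM includes KO_TAC in its mean, so genes high in KO_TAC pass it more easily. Serpina3m and Serpinb2, with means of 0.111 and 0.106 CPM, passed through KO_TAC. The count has no share over all genes beside it and is not a result about these genes. Serpinb9b was at 1.38 CPM in KO_TAC and 0.0934 CPM in KO_sham, Serpina3i at 1.08 and 0.254 CPM, and Serpina3m at 0.478 and 0.0643 CPM.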

How the data were processed

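Poly(A) RNA of 30 mouse hearts was sequenced paired-end, per the labels' protocols. The authors deposited whole-number counts per gene and library. HISAT2 2.1.0, featureCounts and Subread 1.5.1 and the build GRCm38 are named in the submitters' processing notes, and the strand and multi-mapping settings are not given in the sources used here. Gene symbols, coordinates and exon lengths came from GENCODE M21, on the same build, and rows without a symbol held 0.00336% of the counts. All 30 columns were mapped to samples.

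Each cohort was fitted alone in edgeR 4.0.16 (R 4.3.3) with 1 mean per group: filterByExpr, TMM factors, the quasi-likelihood F test and Benjamini-Hochberg adjustment over all genes tested (15596 and 15745), called under 0.05. SE is the absolute log2 fold change over the root of F. Levels are TMM-scaled CPM, while marker sums and the membership limit use CPM of the library total. The fit was tested on simulated data. The alternatives were DESeq2 1.42.0, RLE factors, no filter, the replicate number as a block, a haemoglobin term, haemoglobin-low or haemoglobin-high libraries alone, a Myl7 covariate, other membership limits and each library left out in turn. Leaving out 3 doubtful libraries together, and all alternatives for the 3 gene lists, were chosen after seeing the data. Any member could be named, and 1 gene that met the membership limit is not reported here, although it stayed in the fits. Each list was given by its counts and by at most the 3 called genes of largest change in KO_TAC against KO_sham with a mean of at least 1 CPM. The members, lists and tests were chosen with earlier results of these data known. The labels number the hearts but say nothing else of their origin, so p-values measure the spread between these samples. Replicates were compared, and none differed by sampling noise only: the chi-square per degree of freedom ran from 6.80 to 262 over 42 pairs.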

Additional observations from a re-analysis of the deposited data

Results flagged for a closer look

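In 4 of 84 groups of 4 libraries, 1 library stood far from the other 3 by Dixon's test at 95%, and chance flags about 1 in 20 groups. Serpina3n was at 21.3 CPM in FF_TAC 1 against 8.52 CPM in the next, and Serpina3c at 0.821 CPM in the same library against 0.613 CPM. Serpinb6b was at 72.3 CPM in AAV_TAC 1 against 52.5 CPM in the next. Serpinb1c was at 0.919 CPM in AAV_sham 2 against 0.117 CPM in the next.

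Serpinh1 moved in opposite directions after TAC in the knockout hearts of the floxed cohort and in the PBS hearts of the AAV9 cohort. KO_TAC lay above KO_sham by 0.85 on the log2 scale and PBS_TAC lay below PBS_sham, at -0.76, with no overlap of libraries in either. The difference between these effects was not tested, and the second did not pass the edgeR threshold. In the other pairs the libraries overlapped, with FF_TAC against FF_sham at 0.32 and AAV_TAC against AAV_sham at -0.31.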

How the results depend on the processing

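The count of members called moved by over 1.5 times in these cases, for which the cause was not tested unless the setting itself removes libraries. With a haemoglobin term it was 2 in KO_TAC against KO_sham and 6 in KO_TAC against FF_TAC, from 9 and 10, and among haemoglobin-low libraries alone it was 0 in the latter, in a fit of 4 against 2. DESeq2 called 1 in FF_TAC against FF_sham, 2 in PBS_TAC against PBS_sham and 1 in the knockout by TAC interaction, all from 0. The shares of all genes called are not given for these DESeq2 fits or for the fits below with 1 library left out. Leaving out each library in turn gave 9 to 10 in KO_TAC against KO_sham, 6 to 10 in KO_TAC against FF_TAC (6 without FF_TAC 4), 0 to 2 in PBS_TAC against PBS_sham and 0 to 2 in AAV_sham against PBS_sham (the highest of both without PBS_sham 1; 1 in the former without PBS_sham 3), 0 to 1 in the knockout by TAC interaction (1 without KO_TAC 1) and 0 in the other 5. A membership limit of 1 CPM kept 13 genes and one of 0.1 CPM kept 27. Over 45 results for single genes and their alternatives, 593 values kept direction and call, 60 lost the call, 8 gained it and 1 reversed, that of Serpinb8 in KO_TAC against FF_TAC, which was not called and was -0.054 among haemoglobin-low libraries alone.

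The labels do not say whether the replicate numbers pair the samples, and these values do not settle it. In the floxed cohort, same-numbered libraries of different groups had a median correlation of deviations of 0.035, with 10 of 24 pairs above 0.1. Differently numbered libraries had a median of 0.012, with 21 of 72 above 0.1. For the AAV9 cohort these were 0.00888 with 7 of 19, and 0.017 with 19 of 54. With the replicate block, 9 members were called in KO_TAC against KO_sham, 9 in KO_TAC against FF_TAC (without Serpind1) and 0 in the other 8 comparisons. The share of all genes called with the block is not given.

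Depth limits Serpinb1c outside KO_TAC, Serpina3c and Serpind1, which had the fewest counts of the 14 members.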
